A study of Mus musculus with 2 samples.

Results

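Integrins are the receptors that hold cells to the matrix around them, and laminins are the main matrix proteins that they grip in a basement membrane. The genes described here were the 37 protein-coding genes whose symbols mark them as an integrin alpha chain (Itga), an integrin beta chain (Itgb) or a laminin alpha, beta or gamma chain (Lama, Lamb, Lamc), out of 21911 protein-coding genes in all. They comprise 26 integrin and 11 laminin genes, and were chosen by symbol and not by any value. Open chromatin was mapped with DNase-seq, which finds where the enzyme DNase I cuts, in the gastrocnemius (calf muscle) of adult male B6CASTF1/J mice, an F1 hybrid, at an age of 18 to 20 months. There were 2 samples in 1 group, called biological replicates 1 and 2. Their labels name 1 donor but 2 biosamples. Whether 1 animal or 2 gave the tissue is thus unknown, and each SD (n = 2) measures only how far these samples differ, which may be technical. There was no treatment, control or other age, and the 2 parental alleles were not separated.

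An integrin is a pair of 1 alpha and 1 beta chain, and the alpha chain mostly sets whether the pair binds laminin, collagen or an RGD protein such as fibronectin. A laminin is a trimer of 1 alpha, 1 beta and 1 gamma chain, and sheets of it coat every muscle fibre, capillary and Schwann cell. In skeletal muscle the laminin made with the alpha chain of Lama2 is bound by the integrin of Itga7 and Itgb1 and by dystroglycan, and loss of LAMA2 or ITGA7 in humans causes congenital muscle disease. The deposited peak lists give open regions and say nothing of RNA, so no level of expression was measured. In a bulk tissue, a peak in fewer cells and a weaker peak in each cell cannot be told apart.

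A start site peak is a peak within 1000 bp of any annotated protein-coding start site of the gene. Its signal is the authors' value at the peak, in a unit whose scale is not stated, and its rank is the percentile of that signal among all peaks of the same replicate. Where a gene had several start site peaks, the strongest was used. A distal peak lies in the gene record or its 2 kb flanks and over 1000 bp from every protein-coding start site, of that gene or another. A footprint is a short stretch inside open chromatin, deposited as a separate list, where cuts are sparse in the way a bound protein leaves them.

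Short stretches of the strongest sites show the sequence behind the values that follow. All are 200 bases of the GRCm38.p6 (mm10) reference, written 5′ to 3′ on the strand of the gene. Capitals mark matches to the motifs searched. The start site stretches below belong to the laminin, integrin alpha and integrin beta genes with the highest start site rank, and to Lama2 as the laminin of the muscle fibre, which was added after its values were seen. They end at or before the first annotated start site, so that no base past it is printed. That of Lamc1 is chr1:153332941-153333140 (minus strand), centred on the overlap of the peaks of both replicates. That of Itgav is chr2:83724197-83724396 (plus strand), of Itgb1 chr8:128685454-128685653 (plus strand) and of Lama2 chr10:27616844-27617043 (minus strand).
Lamc1: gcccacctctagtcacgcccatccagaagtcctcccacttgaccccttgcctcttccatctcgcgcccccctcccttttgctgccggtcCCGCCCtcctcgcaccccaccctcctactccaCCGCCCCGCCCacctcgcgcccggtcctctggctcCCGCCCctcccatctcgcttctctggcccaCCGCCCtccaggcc
Itgav: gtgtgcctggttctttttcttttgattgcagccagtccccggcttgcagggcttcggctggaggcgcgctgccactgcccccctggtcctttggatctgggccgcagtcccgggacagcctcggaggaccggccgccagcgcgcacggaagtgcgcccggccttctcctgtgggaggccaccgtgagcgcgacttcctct
Itgb1: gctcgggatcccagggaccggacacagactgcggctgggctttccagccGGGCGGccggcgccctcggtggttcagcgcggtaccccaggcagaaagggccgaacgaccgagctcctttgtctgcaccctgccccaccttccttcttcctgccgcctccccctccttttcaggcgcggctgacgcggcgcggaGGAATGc
Lama2: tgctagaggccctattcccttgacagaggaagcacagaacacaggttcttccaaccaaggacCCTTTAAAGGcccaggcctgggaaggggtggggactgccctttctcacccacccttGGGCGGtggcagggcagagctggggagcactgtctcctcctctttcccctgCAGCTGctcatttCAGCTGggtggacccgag

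The Lamc1 stretch held 5 matches to the Sp and Klf box GGGCGG, all read as CCGCCC on this strand, a pair of them overlapping. That stretch was centred on the peak and ran from 354 to 155 bases before the start site. Of all 21911 equally long stretches ending just before a start site, open or not, 38.3% held at least 1. The Lamc1 stretch is thus not placed like those. The Itgb1 stretch held 1 such box and 1 TEAD match (CATTCC, here as GGAATG), which 9.0% of all such stretches hold. The Itgb1 peak itself lay mostly past the start site, and covered 13 of these bases in replicate 1 and 133 in replicate 2. The Lama2 stretch held 2 copies of the myogenic E-box CAGCTG, 1 box for serum response factor (CArG box) and 1 Sp and Klf box. At least 1 CAGCTG was present in 10.1% and a CArG box in 1.02% of all such stretches. The CArG box, the Sp and Klf box and 1 of the 2 E-boxes of Lama2 touched a deposited footprint of replicate 1. In all start site peaks of replicate 1, 30.3% of CArG box, 53.8% of Sp and Klf and 20.3% of CAGCTG matches touched one. The Itgav stretch, rich in C and G at 68.0%, held none of the 12 motifs searched, which says only that those letters are absent there.

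The next stretches are the centres of the strongest distal peaks among the laminin, integrin alpha and integrin beta genes, with the distal peak of Itga7, the laminin receptor of muscle fibres, added after its values were seen. That of Lama5 is chr2:180217741-180217940 (minus strand, intron 2), that of Itga2b chr11:102467121-102467320 (minus strand, over exon 5), that of Itgb5 chr16:33950931-33951130 (plus strand, in the flank past the end of the gene) and that of Itga7 chr10:128938571-128938770 (plus strand, intron 1).
Lama5: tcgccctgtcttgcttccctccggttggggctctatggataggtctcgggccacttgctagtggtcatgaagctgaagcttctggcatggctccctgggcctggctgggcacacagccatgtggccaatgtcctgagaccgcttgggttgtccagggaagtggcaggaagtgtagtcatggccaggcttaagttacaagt
Itga2b: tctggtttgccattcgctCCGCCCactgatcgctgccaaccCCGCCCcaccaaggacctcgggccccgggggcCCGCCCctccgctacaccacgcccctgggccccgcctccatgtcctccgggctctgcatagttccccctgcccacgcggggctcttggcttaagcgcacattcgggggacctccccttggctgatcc
Itgb5: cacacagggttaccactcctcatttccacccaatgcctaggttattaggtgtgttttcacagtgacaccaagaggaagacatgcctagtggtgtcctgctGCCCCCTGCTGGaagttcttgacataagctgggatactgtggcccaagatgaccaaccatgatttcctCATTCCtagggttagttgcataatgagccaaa
Itga7: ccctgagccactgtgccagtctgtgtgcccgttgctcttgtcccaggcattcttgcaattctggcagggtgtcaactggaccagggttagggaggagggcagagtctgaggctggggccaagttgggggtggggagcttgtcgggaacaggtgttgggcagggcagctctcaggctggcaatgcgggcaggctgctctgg

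The Itga2b stretch held 3 Sp and Klf boxes, each touching a footprint of replicate 1, and 15 CpG pairs. At the centres of all 102766 distal peaks of replicate 1, 7.44% of such stretches held that box. Of all matches to it in those peaks, 44.3% touched a footprint. The Itgb5 stretch held a match to the core of the CTCF motif that touched a footprint, where 5.44% of distal centres hold such a match, and 1 TEAD match, which 13.4% hold. The Lama5 and Itga7 stretches held none of the 12 motifs.

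Start sites were open in most of these genes, but their peaks were weaker than the usual promoter peak. A start site peak was present in 31 of the 37 genes in replicate 1, against 65.7% of all genes, and in 29 in replicate 2, against 63.6%. It was present in both replicates in 28 genes, or 75.7%, against 62.4% of all genes and 74.2% of the 13564 genes whose records are as long as those of the 37 (10.8 to 640 kb). All 11 laminin genes and 17 of the 26 integrin genes were among them. The median signal of the strongest start site peak was 1.14 in replicate 1 and 1.27 in replicate 2 over the integrin and laminin genes with a peak, against 3.17 and 3.42 over all genes with a peak. The median rank was 73.4 and 70.5, against 92.9 and 90.8 over all genes. These medians take in only genes with a peak, and no test was made between the list and other genes.

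**Figure D1:**
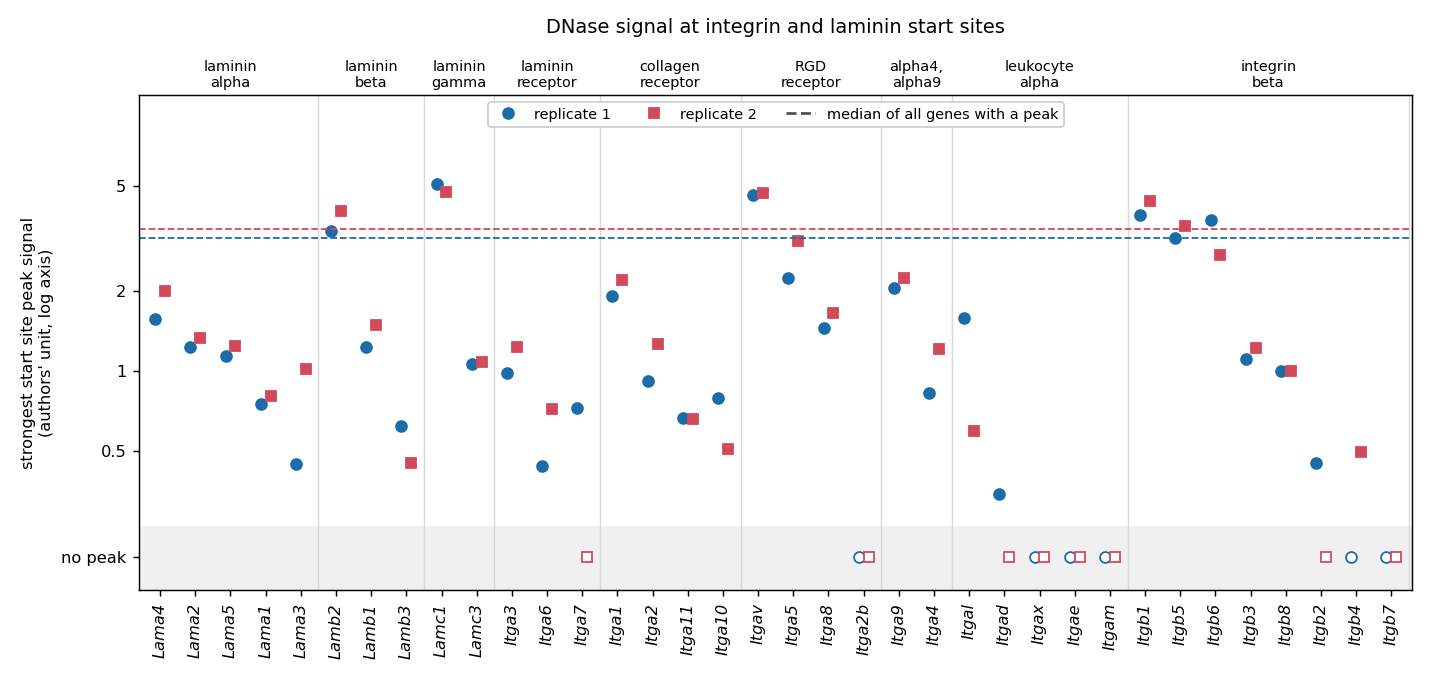
Signal of the strongest start site peak of each gene reported singly (authors' unit, log axis) by role, with replicate 1 as circles and replicate 2 as squares. Open symbols in the grey band are genes with no start site peak in that replicate. Dashed lines are the medians over all genes with a start site peak, 3.17 and 3.42. Lamc1, Itgav, Itgb1 and Lamb2 stood above the line in both replicates, and Itgb5 did so narrowly.

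Among the laminin gamma chains, Lamc1, the gamma chain of nearly all laminins (chr1:153218922-153332786), had the highest start site signals of all 37 genes, 5.07 in replicate 1 and 4.71 in replicate 2, a mean of 4.89 ± 0.257 (SD, n = 2). Its start site windows held 12 and 16 footprints. Lamc3, a gamma chain of more restricted tissues, had 1.07 and 1.08.

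The laminin beta chains differed widely. Lamb2, the beta chain concentrated at the neuromuscular synapse (chr9:108479736-108490530), had signals of 3.38 and 4.0, a mean of 3.69 ± 0.443 (SD, n = 2). That peak lay 746 and 756 bp before the first start site of Lamb2. Usp19, a neighbour whose start sites lie in the flank past the end of Lamb2, had start site signals of its own of 5.50 and 5.67. Lamb1, the more widespread beta chain, had 1.24 and 1.49. Lamb3, the beta chain of the skin laminin, had only 0.624 and 0.453, and no peak in either replicate at its second group of start sites, 94.3 kb downstream.

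Of the laminin alpha chains, Lama4, found around capillaries and fibres, had the strongest start site peak, 1.58 and 2.00. Lama2, the alpha chain of the muscle fibre's own laminin (chr10:26980036-27619758), had 1.24 and 1.34, a mean of 1.29 ± 0.0690 (SD, n = 2), at ranks of 75.7 and 72.1. Lama5, an alpha chain of vessels and epithelia, had 1.14 and 1.25. These 3 genes thus sat well under the median start site of all genes in both replicates, Lama2 included. Lama1, the alpha chain of embryonic basement membranes, had 0.751 and 0.805. Lama3, the alpha chain of the skin laminin, had 0.447 in replicate 1 and 1.02 in replicate 2, the highest ratio of replicate 2 over replicate 1 among the 28 genes open in both (log2 1.19).

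Of the 3 integrin alpha chains that bind laminin, none ranked above 69.1 in replicate 1 or 69.9 in replicate 2. Itga7, the alpha chain of the muscle fibre's laminin receptor (chr10:128933818-128958282), had a start site peak of 0.726 in replicate 1 and none in replicate 2. In replicate 2 a listed cut rate covered 0.924% of the bases in its start site windows, with a lowest false discovery rate of 0.0365. Itgam, with no peak at all, had a like share in replicate 1 alone (0.978%, lowest rate 0.0426). The Itga7 windows include a start site 19955 bp downstream, so these bases are not placed at the first start site. Itga3, which binds laminins of epithelia and vessels, had 0.985 and 1.24. Itga6, which pairs with the chains of Itgb1 and Itgb4, had 0.442 and 0.721, at ranks of 35.1 and 47.4.

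All 4 collagen receptor alpha chains had start site peaks in both replicates. Itga1, the receptor chain for basement membrane collagen, led with 1.92 and 2.20. Its peak lay within 1000 bp of the start site of an unnamed predicted gene, Gm49395, as well. Itga2, also a collagen receptor, had 0.919 and 1.27. Itga11, a receptor for fibrillar collagen known from fibroblasts, had 0.670 and 0.660, and Itga10, known from cartilage, had 0.792 and 0.509. Within this role the order of Itga11 and Itga10 turned between replicates.

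The chains of RGD receptors included the strongest integrin start site. Itgav, the shared alpha chain of the vitronectin receptors (chr2:83724397-83806916), had 4.61 and 4.69, a mean of 4.65 ± 0.0574 (SD, n = 2). Itga5, the alpha chain of the fibronectin receptor, had 2.24 and 3.10. Its start site peak held an AP-1 match (TGACTCA or TGAGTCA) that touched a footprint of replicate 1. Of all AP-1 matches in start site peaks of replicate 1, 22.3% touched one. In replicate 1 the records and flanks of the integrin and laminin genes held 74 start site peaks, some of them at start sites of other genes. An AP-1 match was present in 3 of the 74, or 4.05%, against 3.54% of all 28632 start site peaks. Itga8, which binds nephronectin and fibronectin, had 1.46 and 1.66. Itga2b, the alpha chain of the platelet fibrinogen receptor, had no start site peak in either replicate.

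Itga9, which binds tenascin and VCAM1, had start site signals of 2.06 and 2.25, and Itga4, a leukocyte and progenitor receptor for VCAM1 and fibronectin, had 0.827 and 1.21. Of the 5 alpha chains of leukocytes, 1 was open at a start site in both replicates. That was Itgal, a receptor for ICAM1, with 1.59 in replicate 1 and 0.598 in replicate 2, the lowest ratio of replicate 2 over replicate 1 (log2 -1.41). Its peak lay near a start site 13.3 kb into the gene, and neither replicate had a peak at its first start sites. Itgad had 0.345 in replicate 1 and none in replicate 2. Itgae, which binds E-cadherin on epithelium, had no start site peak in either. Itgam and Itgax, the alpha chains of complement receptors on myeloid cells, had no peak anywhere in their records or flanks.

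Of the integrin beta chains, Itgb1, the partner of most alpha chains and the beta chain of the muscle fibre's laminin receptor (chr8:128685654-128733200), had start site signals of 3.88 and 4.37, a mean of 4.13 ± 0.345 (SD, n = 2). Itgb5, a partner of the Itgav chain (chr16:33829665-33949338), had 3.18 and 3.52 at a start site 62.3 kb into the gene, and 2.31 and 2.62 at its first start site. Itgb6, known from epithelia, where it helps to activate latent TGF-beta, had 3.71 in replicate 1 and 2.73 in replicate 2. The values of Itgb1 thus lay above those of the other beta chains in both replicates, while those of Itgb5 fell within the range of Itgb6. Itgb3, the partner of Itgav and Itga2b chains, had 1.11 and 1.22, and Itgb8, another activator of latent TGF-beta, had 1.000 and 1.00. Itgb2, the beta chain of leukocyte integrins, had 0.452 in replicate 1 alone. Itgb4, the beta chain of epithelial hemidesmosomes, had 0.498 in replicate 2 alone. Itgb7, the partner of the Itgae chain, had none.

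Markers of the cells that use these chains were open to different degrees in the same samples. A start site peak in both replicates was present in 6 of 6 muscle fibre markers, 6 of 6 endothelial markers, 5 of 5 fibroblast markers, 2 of 4 satellite cell markers, 2 of 4 Schwann cell markers, 1 of 5 epithelial markers, 3 of 7 macrophage and leukocyte markers and 0 of 4 megakaryocyte and platelet markers. Of all genes, 62.4% had a start site peak in both replicates. Start site ranks of muscle fibre markers ran from 93.4 to 97.8 in replicate 1 and from 85.7 to 96.8 in replicate 2. Those of the 2 open Schwann cell markers ran from 95.7 to 97.8 and from 93.4 to 96.8. Fibroblast markers ran from 72.4 to 95.9 and from 56.5 to 93.6, and endothelial markers from 34.5 to 80.6 and from 49.7 to 80.5. Those of the 3 macrophage and leukocyte markers with a peak ran from 21.2 to 58.4 and from 24.8 to 66.4, and Cd3e, Csf1r and Ptprc were among those with no peak. The part of cell makeup in the values of leukocyte, platelet and epithelial chains was not tested.

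Signal and the share of start site bases with listed cuts did not go together in every gene. The share of bases in the start site windows with a listed cut rate, at a false discovery rate of up to 0.05, had a median of 19.5% in replicate 1 and 15.5% in replicate 2 over the 37 genes, against 19.4% and 16.7% over all genes and 25.7% and 22.3% over genes in the same length range. Such a base was present in both replicates in 29 of the 37 genes, against 63.4% of all genes, the 28 with a peak in both and Itga7. The share is taken over the windows of all annotated start sites of a gene, so windows without a peak can lower it. Itgb8, with 1 start site and a signal near 1.00, had the highest share, 73.4% and 73.5%, with 4 peaks in each replicate. Itga4, also with 1 start site and a signal below the median of all genes, had 62.9% and 67.3%. Itga5 had the highest signals of the genes with 1 start site, 2.24 and 3.10, but shares of only 35.2% and 46.0%. Itgav had 28.6% and 25.6% over 5 annotated start sites. Those further downstream had no peak, so these values do not give the breadth of its open start site.

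At least 1 start site footprint was present in 30 of the 37 genes in replicate 1, against 64.1% of all genes, and in 29 in replicate 2, against 62.3%. It was present in both in 28 genes, or 75.7%, against 61.1% of all genes and 72.7% of genes in the same length range. The 28 were the same genes that had a start site peak in both. The median number at the start sites of a gene was 4 in both replicates over the 37 genes and also over all genes, but 6 and 5 over genes in the same length range. Itgb5 had 19 in each replicate, Itga1 had 13 in each, and Lamb2 had 11 and 13.

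Most of the start sites without a peak in both replicates were poor in CpG pairs. The ratio of observed to expected CpG within 500 bases of the first start site had a median of 0.597 over the 28 genes open in both replicates and of 0.239 over the other 9. Over all genes it was 0.716 for those open in both and 0.189 for the others, so the open integrin and laminin start sites were lower in CpG than the open start sites of all genes. Itgb4 (0.754), Itga7 (0.589) and Itgad (0.566), each with a start site peak in 1 replicate, had the highest ratios of those 9, and Lamb3, at 0.124, had the lowest of all 37 although a weak peak lay downstream of its start site. The CpG ratio is a description across genes, which are not replicates.

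**Figure D2:**
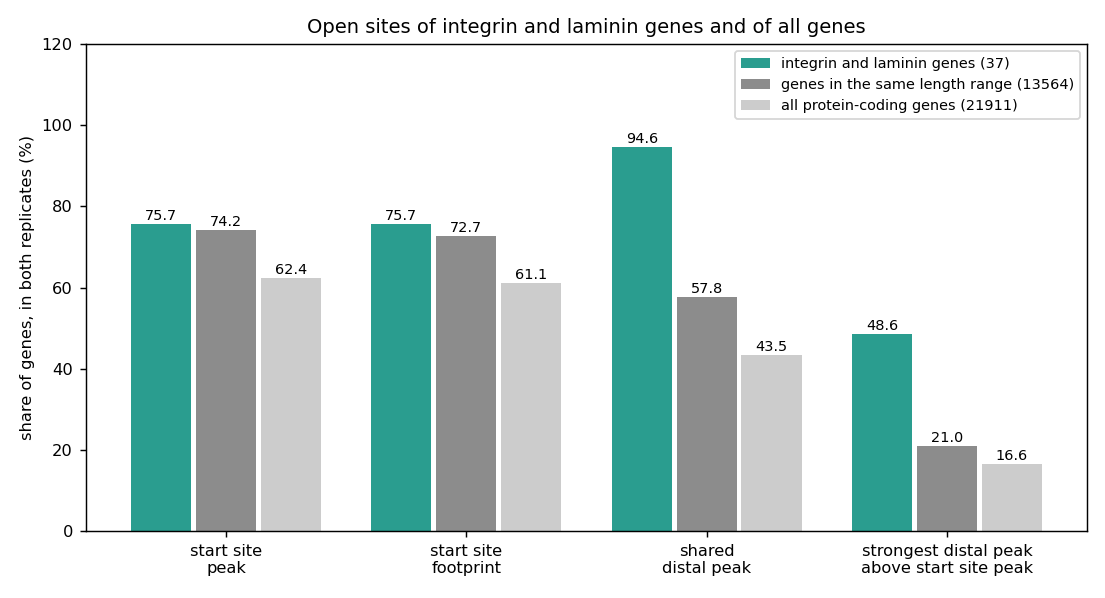
Share of genes (%) with each feature in both replicates, for the 37 integrin and laminin genes, for genes whose records fall in the same length range and for all protein-coding genes. The first 2 groups of bars, start site peak and start site footprint, are close between the 37 genes and genes of like length, and the last 2 groups, shared distal peaks (94.6% against 57.8%) and a distal peak above the start site peak (48.6% against 21%), are further apart.

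Away from start sites these genes held many open regions. A distal peak that overlapped a peak of the other replicate was present in 35 of the 37 genes, or 94.6%, against 43.5% of all genes and 57.8% of genes in the same length range. Itgam and Itgax were the 2 without one, and also the 2 of the 37 with no peak of any kind, where 72.2% of all genes had some peak in both replicates. The median density of distal peaks was 0.817 per 10 kb of gene in replicate 1 and 0.451 in replicate 2 over the 37 genes, against 0.233 and 0 over all genes and 0.434 and 0.207 over genes in the same length range. The 37 records had a median length of 64.4 kb, against 17.4 kb over all genes and 34.2 kb in the same length range, so length is only partly matched. Of the distal peaks of these genes, 250 of 314 in replicate 1 and 118 of 158 in replicate 2 lay in introns. A distal peak in a gene record need not act on that gene.

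In 18 of the 37 genes, or 48.6%, the strongest distal peak had a higher signal than the strongest start site peak in both replicates, counting a start site without a peak as lower. The share was 16.6% over all genes and 21% over genes in the same length range. The 18 genes included the laminin genes Lama3, Lama5, Lamb3 and Lamc3 and 13 integrin genes, Itga2b, Itga6, Itga7, Itga9, Itga10, Itga11, Itgad, Itgae, Itgb2, Itgb3, Itgb4, Itgb5 and Itgb7. The genes with the strongest start sites were mostly not among them. In Lamc1 the strongest distal peak had 1.60 and 1.26, in Lamb2 0.995 and 1.12, and in Itgav 2.95 and 2.84.

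**Figure D3:**
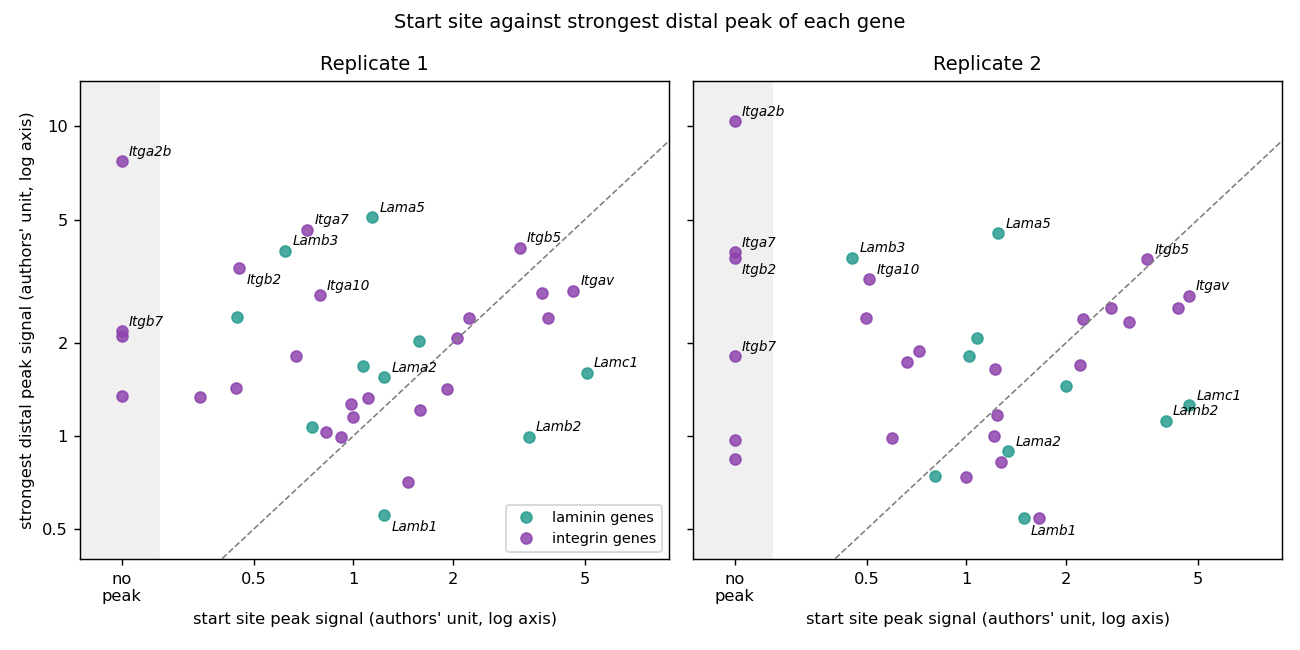
Signal of the strongest distal peak against that of the strongest start site peak of each gene reported singly, both in the authors' unit on log axes, for replicate 1 (left) and replicate 2 (right). Points above the dashed line of equal signal have the stronger distal peak, and genes in the grey band have no start site peak. Itgam and Itgax, with no peak, are not drawn. Lama5, Lamb3 and Itga10 lie far above the line in both replicates, and Lamc1 and Lamb2 far below it. Itga7 and Itgb2 lie far above it in replicate 1 and in the grey band in replicate 2, and Itga2b lies in the band in both.

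The strongest distal peak of all 37 genes was in Itga2b, which had no open start site. It lay over exon 5, 2.66 kb downstream of the start site, with signals of 7.72 in replicate 1 and 10.4 in replicate 2 (mean 9.06 ± 1.90, SD, n = 2), at ranks of 98.9 and 99.4. The peak held 8 and 3 footprints and the 3 Sp and Klf boxes printed above. Of the 4 megakaryocyte and platelet markers, none had a start site peak in both replicates. Weaker regions of Itga2b, over exon 7 (1.43 and 1.34) and exon 28 (0.934 and 1.06), were open as well.

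In Itga7 the strongest region lay in intron 1, 4.85 kb downstream of the start site, with 4.64 in replicate 1 and 3.92 in replicate 2 (mean 4.28 ± 0.506, SD, n = 2). It held 4 footprints in each replicate and had the same edges in both. A second intronic region, 12.1 kb into the gene in intron 13, had 1.95 and 1.33. So the muscle fibre's laminin receptor gene, like Itga2b, was open inside the gene more than at its start site.

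The laminin gene with the strongest distal region was Lama5, with 5.08 and 4.52 in intron 2, 8.03 kb from the start site, a mean of 4.80 ± 0.391 (SD, n = 2). Lamb3 held 4 of the 15 strongest distal regions. They lay in intron 2 (2.92 and 2.66), at 2 places in intron 7 (3.97 and 3.77, then 3.31 and 2.32) and in intron 15 (2.86 and 2.34), all of them above the Lamb3 start site peak. The record of Lamb3 also spans 2 genes on the other strand that had open start sites of their own. They are Hsd11b1, which reactivates glucocorticoids (3.68 and 4.77), and G0s2, an inhibitor of fat breakdown (2.87 and 2.43). Which gene the open regions of this stretch act on was not tested.

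Among integrin beta chain genes, Itgb5 had 26 peaks in replicate 1 and 22 in replicate 2, of which 15 distal ones were shared, the most of all 37 genes. Its strongest were in intron 2, 30.5 kb from the first start site (4.06 and 3.01), and in the flank past the end of the gene (3.52 and 3.72), where the CTCF match stands. Itgb2 had a region in intron 3 (3.41 and 3.75) and one past the end of the gene (3.49 and 3.70) that also held a CTCF match touching a footprint, although its start site had a weak peak in replicate 1 alone. Itgb6 had one 33.5 kb into the record (2.90 and 2.59), and Itgb1 one in intron 3 (2.41 and 2.59).

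**Figure D4:**
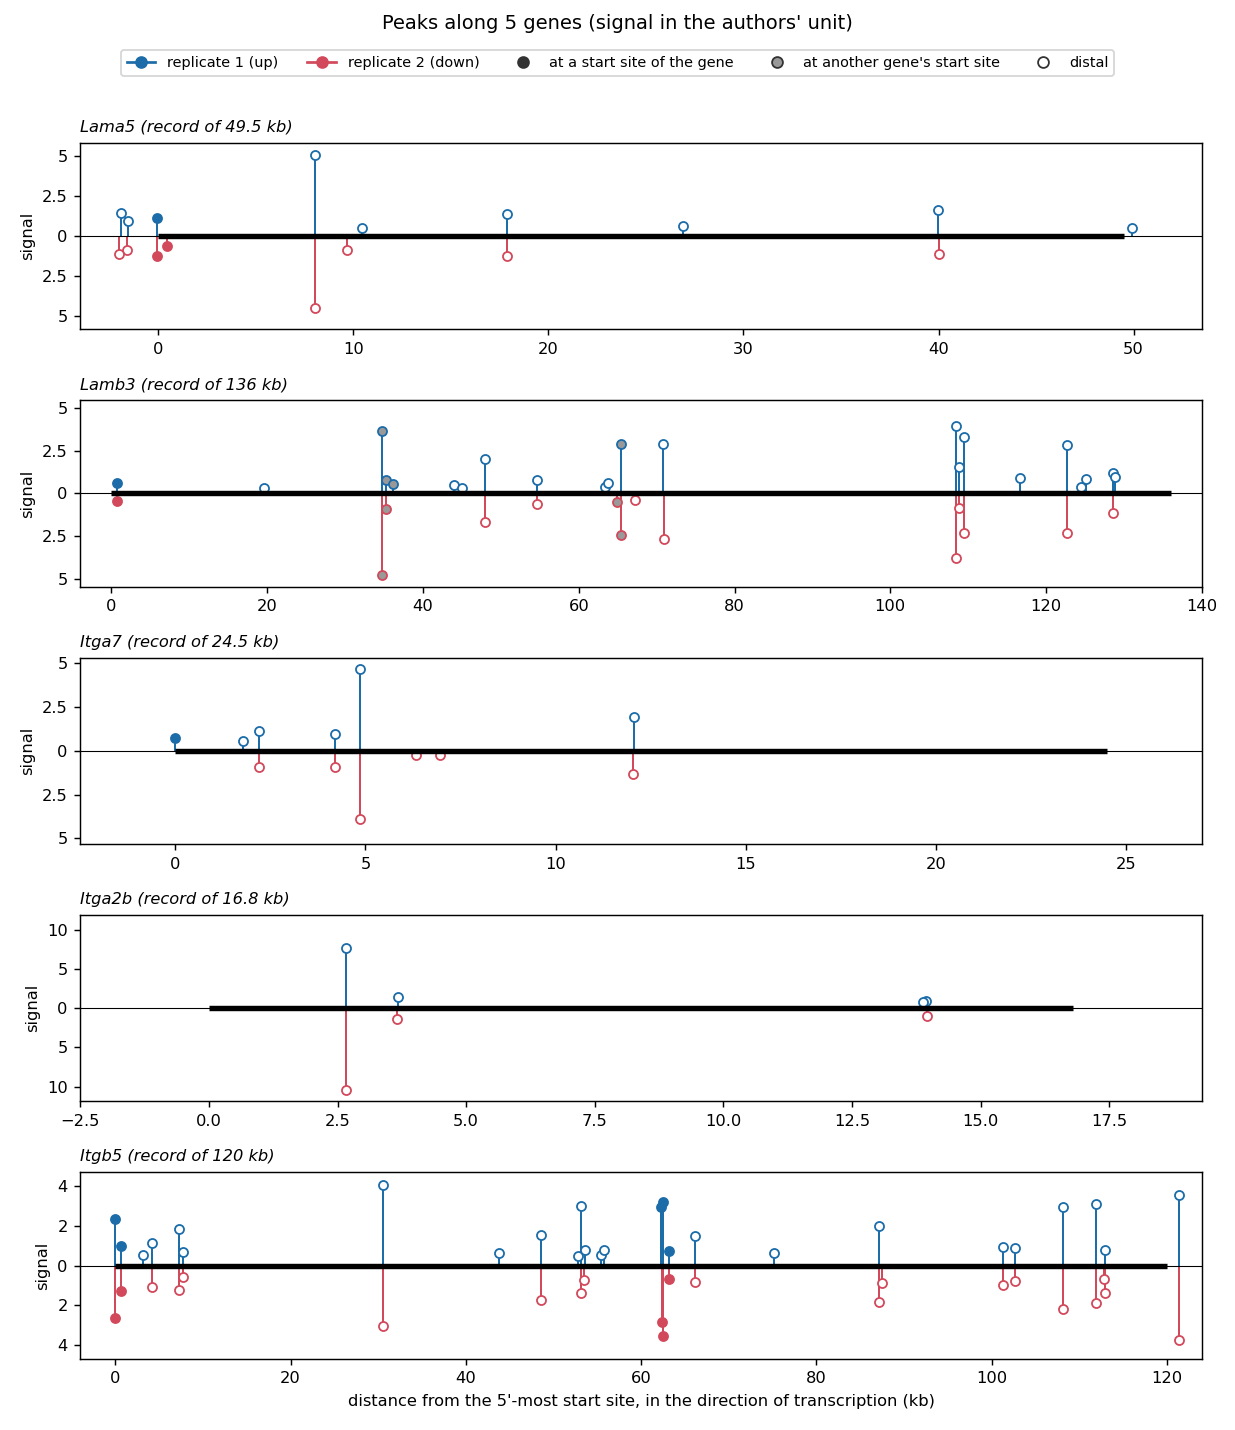
Peaks along Lama5, Lamb3, Itga7, Itga2b and Itgb5, by distance from the first start site (kb), with the signal of replicate 1 drawn up and that of replicate 2 drawn down (authors' unit). The thick line is the gene, filled circles are peaks at a start site of the gene, grey ones at another gene's start site and open ones distal. The tallest regions are distal in each of Lama5, Itga7 and Itga2b, and recur at the same distance in both replicates.

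The remaining regions among the 15 strongest were in Itga10, over exon 30 (2.85 and 3.21), and in Itgav, in intron 1, 5.13 kb from the start site (2.95 and 2.84). The Itgav region held a CAGCTG and a Sox match (ATTGTT) that each touched a footprint of replicate 1. In all distal peaks of replicate 1, 25.2% of CAGCTG and 13.5% of ATTGTT matches touched one. The largest gene, Lama2, with a record of 640 kb, held 36 peaks in replicate 1 and 13 in replicate 2, of which 10 distal ones were shared. None of those of Lama2 reached the signals above, and its strongest distal peak had 1.55 and 0.894. Itga9 held the most peaks of replicate 1, 40, and 16 of replicate 2, and 14 of its distal ones were shared.

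Counts of weak distal peaks depended on the replicate. Over the 37 genes there were 314 distal peaks in replicate 1 and 158 in replicate 2, of which 44.3% and 88.6% overlapped a peak of the other replicate, against 52.8% and 81.7% of all distal peaks. Replicate 1 had the longer list throughout, 131398 peaks against 91567 in replicate 2. Start site signals were compared only over the 28 genes with a peak in both replicates, a measure unlike these counts. In single genes the log2 ratio of replicate 2 over replicate 1 ran from -1.41 to 1.19. The median log2 ratio of replicate 2 over replicate 1 was 0.136 over these 28 genes and 0.0999 over all genes open in both, and Spearman's rho across the 28 genes was 0.890, against 0.983 across 13683 genes, a description across genes that share both libraries.

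Several genes with open start sites lie inside or beside the integrin and laminin records, and their peaks were not counted as distal. Pelo, a ribosome rescue factor inside Itga1, had start site signals of 5.42 and 5.61, above the 1.92 and 2.20 of Itga1. Haspin, a histone kinase inside Itgae, had 3.47 and 3.59, while Itgae had no start site peak. Cox6a2, the muscle form of a cytochrome oxidase subunit, lies inside the record of Itgad and had 2.03 and 1.23. So an open region within an integrin record was in these cases the start of a different gene.

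In distal peaks the myogenic E-box, the TEAD and GATA motifs and the Sp and Klf box were somewhat more frequent than in all distal peaks in both replicates, with no test made. The AP-1, MEF2 and Runx motifs and the CArG box were less frequent in both. In start site peaks of the gene records and flanks the Sp and Klf box was less frequent than in all start site peaks. The myogenic E-box CAGCTG was present in 23.6% of their distal peaks in replicate 1 and 26.6% in replicate 2, against 20.8% and 21.1% of all distal peaks. The TEAD motif CATTCC was present in 15% and 15.2%, against 12.8% and 11.9%. The GATA motif AGATAA was present in 6.69% and 6.33%, against 6.00% and 5.01%. The Sp and Klf box GGGCGG was present in 8.92% and 12.0% of their distal peaks, against 7.48% and 9.57% of all. It was present in 39.2% and 36.0% of the start site peaks in their records and flanks, against 47.5% and 52.0% of all start site peaks. The start site peaks in these records and flanks include those of other genes, such as Pelo and Haspin. In the same start site peaks, CAGCTG was present in 21.6% and 18.7%, against 15.6% and 15.7%. CATTCC was present in 14.9% and 12.0%, against 9.66% and 9.29%. The E-box CACGTG was present in 1 and 2 peaks, or 1.35% and 2.67%, against 7.42% and 7.5%. The CTCF core was present in 13 distal peaks of replicate 1 and 11 of replicate 2. Its shares of 4.14% and 6.96%, against 5.40% and 6.57% of all, differed in direction between the replicates. In replicate 1, 13 of its 13 matches touched a footprint, against 93.2% of matches in all distal peaks, and in replicate 2 11 of 11 did, against 94.2%. Over the remaining motifs the distal shares in replicate 1 ran from 0.637% for the CArG box to 12.7% for the Runx motif TGTGGT, against 0.994% and 13.7% of all distal peaks, and in replicate 2 from 0.633% to 12.7% for the same motifs, against 0.882% and 13.7%. The distal shares of CACGTG, 4.14% and 3.80% against 3.81% and 3.93%, and of the ETS motif CCGGAAG, 1.27% and 1.90% against 1.55% and 1.79%, also differed in direction between the replicates. Those of the Sox motif ATTGTT did so too, at 6.37% and 4.43% against 6.20% and 5.17%. MEF2 was present in 3.18% and 1.90%, against 3.32% and 2.11%, and AP-1 in 6.69% and 6.96%, against 8.03% and 7.08%. Both strands were searched, a match is no evidence of binding, and Sp and Klf boxes may overlap each other.

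Most partner genes of the integrins and laminins were open at their start sites. Of 21 genes of integrin adhesion, which link the receptor's tail to actin, 19 had a start site peak in both replicates, or 90.5%, against 62.4% of all genes. Their median rank was 92.1 and 90.6. The strongest were Vcl, which encodes vinculin (10.5 and 10.4), Lims1, a partner of integrin-linked kinase (8.41 and 8.91), and Bcar1, an adaptor at adhesions (7.10 and 7.46). Fermt1, the kindlin of epithelia, had no peak. Of 21 genes of basement membrane and other matrix ligands, 20 had one in both, or 95.2%, with median ranks of 84.2 and 78.8. Among genes in the length range of the 37 the share was 74.2%, and neither list was matched for length. The neighbours Col4a1 and Col4a2 had the same signals (2.08 and 1.95), as did Col4a3 and Col4a4 (0.701 and 0.632). The 20 genes thus need not have 20 separate start site peaks. Dag1, which encodes dystroglycan, the other laminin receptor of the fibre, led with 9.14 and 9.96, and Hspg2, which encodes perlecan, had 8.19 and 9.76. Dag1 thus carried a start site signal higher than any of the 37 genes, while Itga7 had a peak of 0.726 in replicate 1 alone. Col6a2, a chain of collagen VI, had 5.50 and 6.47, and Col4a6 had no start site peak.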

How the data were processed

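DNase-seq peak lists, footprints and cut rate lists of 2 samples were used. Per the labels, reads were on mm10. The deposited peak lists give the authors' signal at each peak (column 7), scaled separately per sample, with scale and depth unknown. The deposited cut rate lists give a p-value type measure, a false discovery rate of up to 0.05, and the footprint lists a constant p-value type threshold of 0.01. The aligner and peak caller are not given in the sources used here. Each sample has 2 peak lists, and the longer was used (131398 and 91567 peaks), with 339656 and 234091 footprints.

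Genes were the protein-coding symbols of GENCODE M21, 1 record each. Peaks overlapped when sharing at least 1 bp. Start site windows reached 1000 bp to either side and gene flanks 2 kb. Signals were ranked within each replicate. Scripts used Python 3.11.15, numpy 2.4.6, pandas 2.3.3, scipy 1.17.1 and matplotlib 3.10.9, and the overlap counts were tested on simulated data. Every gene was to be named, with values for each one that had a start site peak, for up to 15 distal peaks of highest mean rank and for up to 3 genes of a pathway list, with those lacking a peak. Some genes that this rule names are counted but not reported singly here. The genes, lists and motifs were chosen with earlier results of these data known, and the CTCF motif was added after seeing the data. With 1 group there was no contrast, so no test was run. Alternatives were other windows, flanks, peak lists, start sites and overlaps, and leaving out each replicate.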

Additional observations from a re-analysis of the deposited data

How the results depend on the processing

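Of the 5 summary values, the 3 counts of genes stayed within 1.5 times under every alternative. With 37 genes in all, none of these counts could rise by that factor, so only a fall could have exceeded it. The alternatives were counted over the 37 genes only. No share of all genes stands beside them, so whether the differences from all genes hold under them was not tested. Start site peaks in both replicates were counted in 22 to 31 genes, shared distal peaks in 31 to 35 and start site footprints in 27 to 31, and leaving out 1 replicate gave 29 to 31, 35 and 29 to 30. The median rank of start site peaks, 72.0 as the mean of both replicates, was 74.9 with a window of 2500 bp, 61.8 with the shorter peak list, 51.1 with the better 50% of the peaks and 67.0 with the same number of top peaks in both. The ranks of the last 3 are taken within a shorter list, which lowers them by construction. Leaving out 1 replicate gave 70.5 to 73.4. The median of peaks per 10 kb of gene, 0.876, was 0.521 with the shorter list and 0.459 with the better 50%, which hold fewer peaks, and 0.685 to 1.07 with 1 replicate left out. The replicate 1 list is the longer, so unshared weak peaks rest on it. No paired analysis was possible because both samples belong to 1 group.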
